A study of Mus musculus with 4 samples.

Results

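Intronic open regions in mostly unique sequence were studied in E14 mouse embryonic stem cells (ESCs) by ATAC-seq, in which a transposase cuts accessible chromatin and a peak caller lists the intervals where fragments pile up. Peaks of 4 libraries were merged on the 19 autosomes when they shared at least 1 bp, which gave 50704 regions. A region was kept when under 50% of its bases were soft-masked (repeat-annotated lower-case letters of the reference), no GENCODE mouse release 21 transcript started within 1 kb, it touched no exon and it lay in a gene body. This left 10418 regions, 20.5% of the union, which covered 5.92 Mb.

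All cells were E14, an established ESC line, grown in serum and leukaemia inhibitory factor, transduced with a pLKO lentivirus that carries a short hairpin RNA, and selected with puromycin before harvest. There was 1 library with a hairpin against GFP (shGFP) and 3 with a hairpin against luciferase (shLuc replicates 1, 2 and 3). Neither target is a mouse gene, so both groups are non-targeting controls and no gene was depleted in either. The labels do not say whether the shLuc replicates were separate transductions, so the spread between them may be technical.

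The autosomal peak lists held 40290 peaks in shGFP and 17269, 39756 and 30336 in shLuc replicates 1, 2 and 3. shLuc replicate 1 thus had the shortest list by a wide margin. Peaks were deposited as intervals with no height or read count. The study's supplement lists the reads of each library, and shLuc replicate 1 has the fewest of the 4. Those totals were not used here, and the values below describe which intervals were listed and how wide they were. Of 12 markers of ESCs, 6 had a listed region within 1 kb of a transcript start in at least 1 library, among them Zfp42 and Tfcp2l1 in 4 of 4 libraries. Pou5f1, Sox2 and Nanog, defining factors of ESCs, had none in these lists. Of 8 markers of other lineages 2 had one (Sox17 in 4 libraries and Myod1 in 1). Intronic regions of the kind studied here lay in 2 of the 12 markers of ESCs (Esrrb and Tfcp2l1). They lay in 1 of the 8 markers of other lineages (Gata4, with 2 regions).

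Open regions inside introns and away from promoters include enhancers, which transcription factors bind to raise transcription of a host or neighbouring gene, insulator sites bound by CTCF, which halts loop extrusion by cohesin, and promoters of transcripts that an annotation does not hold. In ESCs, enhancers are bound by OCT4 and SOX2 together on a composite motif, and by KLF factors, ESRRB, STAT3 downstream of leukaemia inhibitory factor, and TEAD and AP-1 factors at other sites. A first intron often carries more regulatory sequence than the introns that follow it.

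The sequences below show what such a region looks like at the letters that the motif results turn on. For each motif shown, the region found in all 4 libraries whose match lay closest to its midpoint is given with 60 bases on either side. Letters are from the GRCm38 reference (coordinates of mm10, counted from 1), read 5′ to 3′ on the strand given, with the match in capitals.
Kbtbd12, CTCF core, chr6:88578125-88578253 (-): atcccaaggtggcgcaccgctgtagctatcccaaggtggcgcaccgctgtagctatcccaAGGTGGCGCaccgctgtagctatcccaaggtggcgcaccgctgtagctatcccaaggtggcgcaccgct
Dgkg, OCT4-SOX2 composite, chr16:22637446-22637574 (+): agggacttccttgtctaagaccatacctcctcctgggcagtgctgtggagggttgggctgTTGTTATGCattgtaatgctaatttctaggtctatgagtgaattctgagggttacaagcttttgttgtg
Pde1a, octamer, chr2:80126814-80126941 (-): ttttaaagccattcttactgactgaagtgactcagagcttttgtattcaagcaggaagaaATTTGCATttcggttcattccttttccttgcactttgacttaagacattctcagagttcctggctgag
Pid1, RFX, chr1:84226156-84226284 (-): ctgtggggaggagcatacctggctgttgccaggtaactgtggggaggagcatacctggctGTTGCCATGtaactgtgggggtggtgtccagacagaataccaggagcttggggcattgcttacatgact
Aff1, STAT, chr5:103724846-103724974 (+): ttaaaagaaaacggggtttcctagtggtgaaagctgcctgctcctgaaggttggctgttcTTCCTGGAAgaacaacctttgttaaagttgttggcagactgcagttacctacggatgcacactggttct
Skap1, AP-1, chr11:96622835-96622961 (+): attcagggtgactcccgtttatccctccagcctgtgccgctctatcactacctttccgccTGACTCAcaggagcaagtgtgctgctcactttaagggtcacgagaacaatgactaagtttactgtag
Ttc28, TEAD, chr5:111170605-111170731 (+): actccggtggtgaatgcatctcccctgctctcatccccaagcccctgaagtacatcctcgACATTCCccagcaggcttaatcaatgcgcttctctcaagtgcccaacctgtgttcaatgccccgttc
Gm31718, KLF, chr8:126885648-126885775 (-): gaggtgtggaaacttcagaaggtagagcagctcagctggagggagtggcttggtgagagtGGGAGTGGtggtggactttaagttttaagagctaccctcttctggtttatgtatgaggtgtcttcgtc
Galnt17, GATA, chr5:130950862-130950988 (+): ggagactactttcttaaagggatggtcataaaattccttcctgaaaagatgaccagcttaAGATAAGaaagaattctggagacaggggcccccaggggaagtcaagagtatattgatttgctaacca

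The CTCF core was searched as AGGNGGCGC, and the Kbtbd12 stretch (intron 5 of 5) held it 5 times, in a tandem repeat with a unit of 27 bases that the reference does not mask (57.9% of the words of this region were repeated). The OCT4-SOX2 composite was searched as TTGTNATGC and stood in the first of 24 introns of Dgkg, a diacylglycerol kinase, where 2 matches lay within the stretch shown. The octamer, the site of POU factors such as OCT4, was ATTTGCAT and stood in the first of 14 introns of Pde1a, a calmodulin-dependent phosphodiesterase. RFX was GTTGCCATG (Pid1, intron 1 of 2), STAT was TTCCNGGAA (Aff1, outside the introns of the reference transcript; Aff1 encodes a scaffold of the super elongation complex), AP-1 was TGANTCA (Skap1, intron 4 of 12) and TEAD was ACATTCC and stood in intron 5 of 23 of Ttc28. KLF was GGGNGTGG (Gm31718, outside the reference introns) and GATA was AGATAAG (Galnt17, intron 6 of 10). All were searched on both strands, where N stands for any base, and the octamer and the composite can overlap.

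The name "mostly unique" was checked with words of 50 bases. In the 10418 regions a mean of 2.69% of words occurred more than once on the 21 chromosomes, against 54.6% in the 2829 intronic regions with at least 50% masked bases. No word was repeated in 9150 regions (87.8%). The label failed for 235 regions (2.26%), in which over 50% of the words were repeated although the reference masks under 50% of the bases. Among regions found in all 4 libraries this share was 44 of 816, or 5.39%. In repeated words a read can be placed at more than 1 copy, so a peak there may belong to another copy. Masked bases made up 13.5% on average, and 1765 regions (16.9%) had none. The 251 regions with 45 to 50% masked bases, just inside the limit, had a GC content of 47.1%, a median width of 486 bp and 10.4% in all 4 libraries. The 205 intronic regions with 50 to 55%, just outside, had 46.3%, 497 bp and 8.78%.

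Most of these regions were found in few libraries. Of the 10418 regions, 4331 (41.6%) were found in 1 library, 2554 in 2, 2717 in 3 and 816 (7.83%) in all 4. Over all 50704 autosomal regions, 28.4% were found in 1 library only and 27.3% in all 4. Intergenic regions of mostly unique sequence, the most similar class, had 9.43% in all 4, intronic repeat-dominated regions 28.6%, and promoter regions of mostly unique sequence 54.3%. shLuc replicate 1 set much of the count in all 4: it held 1459 of these regions, against 7184 in shLuc replicate 2, 4812 in shLuc replicate 3 and 7399 in shGFP, and merging the other 3 libraries alone put 32.5% of regions in all 3. The commonest single pattern was shGFP with shLuc replicates 2 and 3, in 2484 regions (23.8%).

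Among the regions of each library, 11.03% were found in all 4 in shGFP, and 55.9%, 11.4% and 17.0% in shLuc replicates 1, 2 and 3. Each of these was lower than for promoter regions of the same library, by 31.9 to 52.8 percentage points, and lower than for intergenic unique regions, by 1.79 to 4.71 percentage points. In the exact two-sided sign-flip permutation test over libraries, 2 of 16 sign patterns were as extreme for both comparisons, the fewest that 4 libraries allow, so no such test can pass 0.05. The regions found in all 4 are the same ones in each library, and only the total they are divided by differs. The 4 differences are therefore not independent, and the test cannot weigh them as separate observations.

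**Figure D1:**
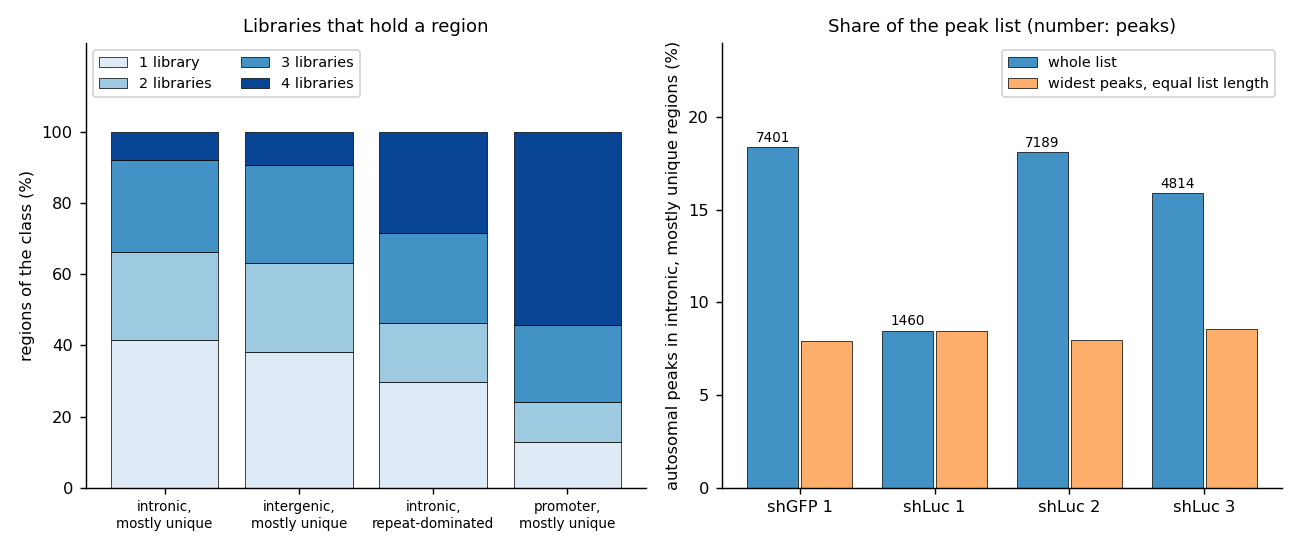
Left, the share of regions (%) found in 1, 2, 3 or 4 libraries, for intronic unique, intergenic unique, intronic repeat-dominated and promoter unique regions; all 4 libraries held 7.83% of the first class and 54.3% of the last. Right, the share of autosomal peaks (%) that fell in intronic unique regions in each library, for the whole list (blue, with the number of peaks) and for as many of the widest peaks as the shortest list holds (orange); the whole lists ranged from 8.45% to 18.4% and the equal-length lists from 7.93% to 8.54%.

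Between the hairpins, the share of a library's autosomal peaks that fell in these regions was 18.4% in shGFP (95% Wilson interval 17.99 to 18.75, counting error only) and 8.45%, 18.1% and 15.9% in shLuc replicates 1, 2 and 3. The shLuc mean was 14.1% ± 5.04 (SD, n = 3), so shGFP stood 4.23 percentage points above it, less than the SD of the shLuc libraries. Counted over regions, the difference was 4.24 percentage points with all libraries and 1.40 without shLuc replicate 1. An exact permutation test of 1 library against 3 cannot go below p = 0.25 and was not used. shGFP and shLuc replicate 2 had nearly the same share, and the shortest list had the lowest. When each list was reduced to its 17269 widest autosomal peaks, the shares were 7.93% in shGFP and 8.45%, 7.98% and 8.54% in shLuc replicates 1, 2 and 3, and shGFP was the lowest.

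In shGFP alone, 1841 regions were found (17.7%), against 11.7% of all autosomal regions. In all 3 shLuc libraries but not in shGFP, 28 were found (0.269%), against 0.343% of all autosomal regions. The counts found in a single shLuc library were 259, 1677 and 554 for replicates 1, 2 and 3, so shGFP and shLuc replicate 2 had similar numbers of their own. The 3 widest regions found only in shGFP lay in Zswim6 (1674 bp), in Abl1, which encodes a tyrosine kinase (1665 bp), and in Foxo1, which encodes a forkhead factor restrained by insulin signalling (1579 bp). Of their words, 99.3%, 14.1% and 68.4% were repeated elsewhere, so only the Abl1 region was mostly unique by that measure. The 3 widest found in all shLuc libraries but not in shGFP lay in Otx2os1, a noncoding transcript opposite Otx2 (1290 bp), Ascc1, a subunit of the activating signal cointegrator (1069 bp), and 4930414F18Rik (1006 bp), with 0 to 1.37% repeated words. The Otx2os1 region rested on peaks of 230, 1290 and 725 bp in shLuc replicates 1, 2 and 3.

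The regions were narrow. Their median width was 514.5 bp after merging (quartiles 364 and 707, longest 2651 bp). In single lists the median peak was 484 bp in shGFP and 370, 480 and 484 bp in shLuc replicates 1, 2 and 3. Peaks in promoter regions of the same libraries were wider by 305 to 415.5 bp, peaks in intronic repeat-dominated regions by 182.5 to 289 bp, and peaks in intergenic unique regions by 6 to 15 bp, in 4 of 4 libraries each (2 of 16 sign patterns in the exact permutation test). Peaks in regions found in all 4 libraries were wider than peaks in regions of 1 library, at 654 against 369 bp in shGFP, and 410 against 304, 642 against 373 and 603 against 362.5 bp in shLuc replicates 1, 2 and 3.

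The GC content of these regions was higher on average than that of eligible introns across the autosomes, with wide overlap. Regions were not compared with their own introns. The central 300 bp held 49.0% GC ± 6.08 (SD over 10418 regions), against 42.1% ± 6.92 in 2334855 windows of 300 bp tiled over eligible introns (under 50% masked, off exons, over 1 kb from a start and outside all regions). Intergenic unique regions were also higher, at 49.5% against 40.4% in intergenic windows. Of the intronic windows 15.7% had under 35% GC, and of the intronic regions 0.893%. A GC content of 60% or more was found in 0.246% of these windows and 3.62% of these regions, an excess of 14.7-fold. That excess was 16.1-fold in shGFP and 43.0-, 15.4- and 17.9-fold in shLuc replicates 1, 2 and 3, so it was present in 4 of 4 libraries and largest in the shortest list. Of the regions with 60% GC or more, 25.7% were in all 4 libraries, and of those with 40 to 45% GC, 4.44%.

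Mean GC of the peaks themselves was 49.0% in shGFP and 51.7%, 49.0% and 49.0% in shLuc replicates 1, 2 and 3. It was lower than in promoter regions by 11.4 to 12.7 percentage points, than in intronic repeat-dominated regions by 5.00 to 6.94, and than in intergenic unique regions by 0.308 to 1.63 (2 of 16 sign patterns in each exact permutation test). CpG dinucleotides were rare. The ratio of observed CpG to that expected from C and G content had a median of 0.198 in the regions and 0.680 in promoter regions. Only 145 regions (1.39%) had at least 50% GC and a CpG ratio of at least 0.6, the make-up of a CpG island, against 61.6% of promoter regions and 3.42% of intergenic unique regions. In all 4 libraries were 37 of the 145, against 816 of all 10418 regions (7.83%).

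Among regions found in all 4 libraries, those of highest and lowest GC are shown by their central 200 bases, since they differ in what the letters are made of. They are not the ends of the range of all 10418 regions, of which 93 had under 35% GC in the central 300 bp. CpG dinucleotides are in capitals.
Gm20388, highest GC, chr8:122230481-122230680 (+): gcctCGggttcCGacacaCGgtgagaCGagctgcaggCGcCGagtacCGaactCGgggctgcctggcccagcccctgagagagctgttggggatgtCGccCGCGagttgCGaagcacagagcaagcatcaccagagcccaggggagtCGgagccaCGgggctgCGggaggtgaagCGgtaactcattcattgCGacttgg
D5Ertd579e, lowest GC, chr5:36661140-36661339 (+): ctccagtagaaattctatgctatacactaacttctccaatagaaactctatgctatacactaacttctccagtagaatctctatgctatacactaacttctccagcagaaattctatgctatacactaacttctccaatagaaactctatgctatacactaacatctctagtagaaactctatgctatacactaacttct

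The Gm20388 region (772 bp, 72.4% GC, CpG ratio 0.965, no repeated word) held 17 CpG dinucleotides in the stretch shown, and its peaks were 735, 661, 533 and 732 bp wide in shGFP and shLuc replicates 1, 2 and 3. The D5Ertd579e region (639 bp, 34.0% GC, in intron 2 of 8) held none, and 37.6% of its words were repeated. Its letters repeated with 96.0% identity at a shift of 99 bases, and the reference masks none of the region. A region in the same intron with 34.9% GC and one in Vps45, which encodes a vacuolar sorting protein, with 35.1% GC had 77.2% and 91.2% repeated words. All 3 regions of lowest GC in 4 libraries thus lay partly or largely in repeated words. Of the 3 of highest GC in 4 libraries, the Gm20388 region and one in the noncoding gene Lncppara (72.0% GC, 2238 bp) had none, and one in Gm3173 had 83.7%.

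**Figure D2:**
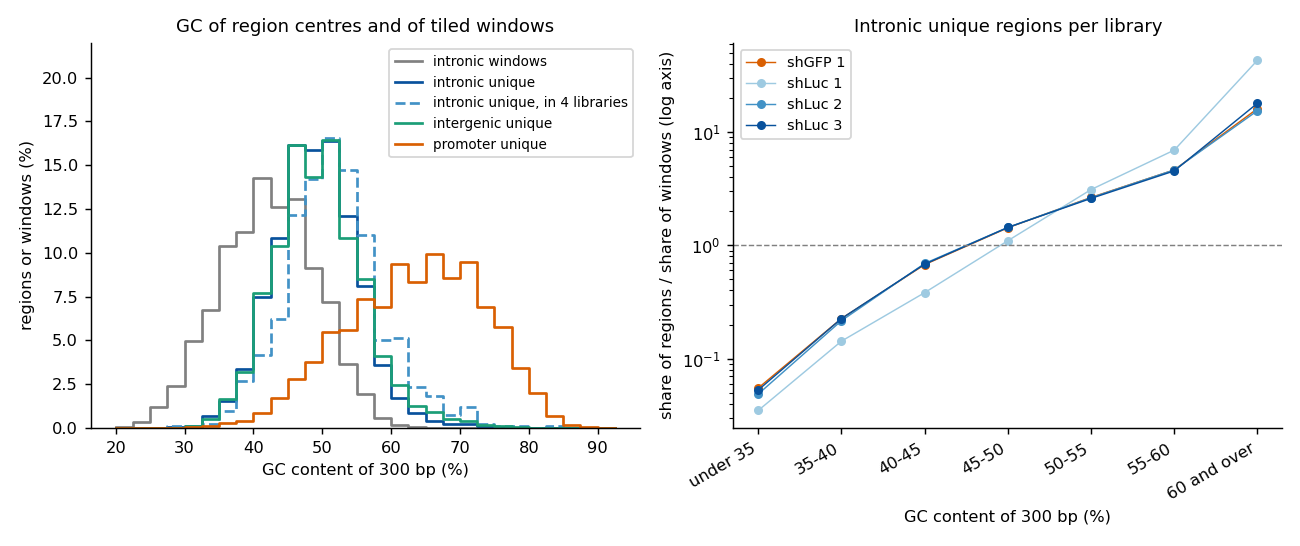
Left, the GC content (%) of the central 300 bp of regions and of tiled intronic windows, as the share of each set per bin of 2.5 percentage points; intronic unique regions centred near 49.0%, windows near 42.1%, and promoter regions lay to the right. Right, for each library, the share of intronic unique regions over the share of windows in bins of GC (log axis, dashed line at 1); the ratio rose from 0.0569 under 35% GC to 14.7 at 60% and over in the merged libraries.

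Motif shares in the regions differed from those in windows of eligible intron across the autosomes. A CTCF core stood in the central 300 bp of 302 regions, 2.90% against 0.140% of windows, 20.7-fold. Because the regions are GC-rich, window shares were also weighted to the GC of the regions (bins of 2.5 percentage points), and the CTCF core was then 8.62-fold. By library the share was 3.04% in shGFP and 3.84%, 2.66% and 2.49% in shLuc replicates 1, 2 and 3, and the weighted fold was 8.85 in shGFP and 7.48 in shLuc (SD 0.37, n = 3). Intergenic unique regions held the core in 3.66% and promoter regions in 6.70%.

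The octamer (3.90% of regions, 2.13% of windows) and the OCT4-SOX2 composite (2.24% and 0.890%) moved the other way under weighting. Both are rich in A and T, and their fold over windows was 1.83 and 2.51 before and 3.08 and 3.16 after weighting by GC. The composite was at 3.30-fold in shGFP and 3.43 in shLuc (SD 0.09, n = 3). Its share was 2.82% in regions found in all 4 libraries and 2.08% in regions found in 1. Intergenic unique regions held the composite in 1.78% and promoter regions in 0.364%. The octamer stood in 4.32% of intergenic unique and 1.19% of promoter regions.

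Weighted folds were lower for the other factors of enhancers. RFX was at 1.94, AP-1 at 1.78, STAT at 1.68 and TEAD at 1.57. AP-1 letters were the commonest of these, in 1675 regions (16.1%, against 15.7% of intergenic unique and 5.08% of promoter regions). In shLuc replicate 1 the AP-1 share was 9.53%, against 15.7% to 16.4% in the other 3 libraries. KLF letters stood in 13.3% of regions and 5.99% of windows, 2.22-fold, but 1.24-fold after weighting, and at 0.961-fold in shLuc replicate 1. The site of ESRRB and NR5A2, nuclear receptors of ESCs, was TCAAGGTCA and stood in only 92 regions (0.883%, against 0.720% of windows). Its weighted fold was 1.09, at 1.17 in shGFP and 0.984, 1.15 and 1.16 in shLuc replicates 1, 2 and 3, so it was above windows in 3 of 4 libraries. GATA letters, sites of factors of other lineages, were rarer in the regions than in windows, at 3.54% and 4.62%, and at 0.951-fold after weighting. Some motifs that were commoner in promoter regions had weighted folds like those of the enhancer factors. ETS (CCGGAAGT) was at 1.79, YY1 (AAGATGGCG) at 1.71, NRF1 (GCGCANGCG) at 1.57 and the GC box (GGGGCGGGG) at 1.57, in 55, 27, 35 and 210 regions. In shLuc replicate 1, ETS was at 3.68 and NRF1 at 3.31, while AP-1 was at 1.13 and TEAD at 1.26. Of 16 motifs searched, 15 were above windows in both ways of counting in the merged set, and 13 were above the weighted windows in 4 of 4 libraries. For those 13 and for GATA the exact permutation test over 4 libraries reached its minimum of 2 in 16 sign patterns, so none could pass correction over 16 motifs. In 4586 regions (44.0%) none of the 16 was found, against 63.1% of windows. A match is a match of letters only.

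**Figure D3:**
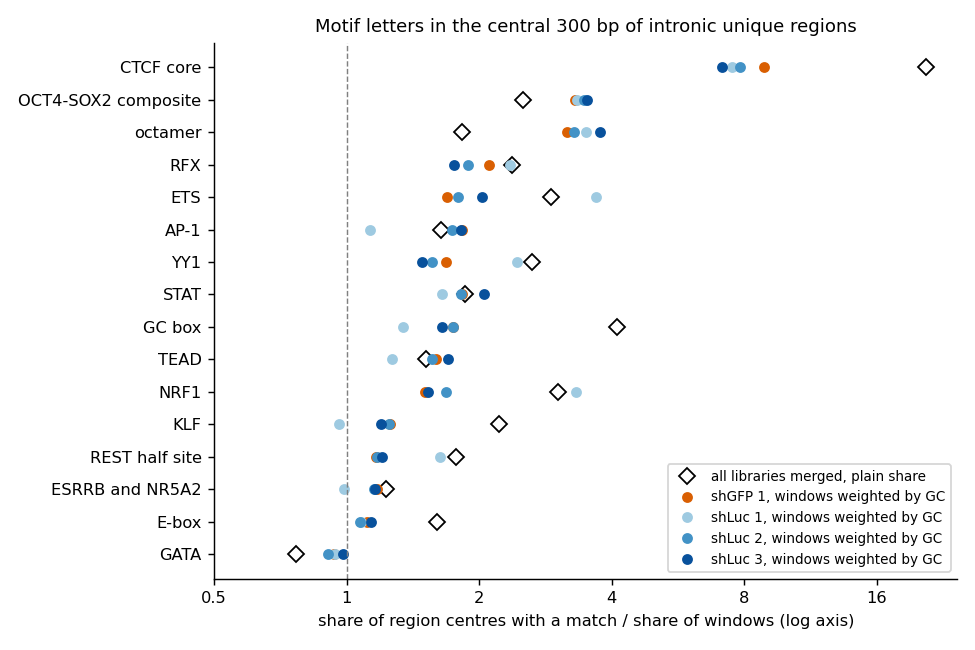
Share of intronic unique regions with each of 16 motifs in the central 300 bp, divided by the share of intronic windows (log axis, dashed line at 1). Open diamonds are the merged libraries with plain window shares and dots are single libraries with windows weighted by GC; the CTCF core lay at 20.7 and 8.62 in the merged set, and GATA was below 1 in both.

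Inside the host genes, the regions were spread over the introns. In the reference transcript (longest coding sequence) 2769 regions (26.6%) lay in the first intron, 6640 (63.7%) in a later one and 1009 (9.69%) in the gene body but outside that transcript's introns. Per Mb of eligible unmasked intron this was 16.4 regions in first introns and 14.9 in later ones, 1.10-fold. The density was 15.7 in intron 2, 15.5 in intron 3, 15.0 in intron 4 and 14.3 from intron 5 on. In shGFP it was 11.3 in first and 10.7 in later introns. In shLuc replicates 1, 2 and 3 it was 2.35 and 2.00, 11.3 and 10.2, and 7.82 and 6.76. First introns were thus higher in 4 of 4 libraries, with ratios of 1.06 in shGFP and 1.15 in shLuc (SD 0.04, n = 3) (2 of 16 sign patterns in the exact permutation test), and in 15 of 19 chromosomes. The libraries shared many of these regions, as shGFP shared 67.4% of its own with shLuc replicate 2. Their values are therefore not independent.

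This small difference depended on how eligible intron was counted. Per tiled 300 bp window, which leaves out the short stretches beside exons, the ratio was 1.05. Windows of first introns held slightly more GC than those of later introns, 42.5% against 41.9%. Relative to the number expected if windows of each GC bin carried regions at the rate of all introns, first introns held 0.959 and later introns 1.01 of the expected number, a ratio of 0.950. That ratio was 0.919 in shGFP and 0.958, 0.957 and 0.997 in shLuc replicates 1, 2 and 3, below 1 in 4 of 4 libraries. This ratio was not split by distance from the start. The rule that drops regions near starts and exons lowers the bin under 5 kb (given below). That bin held 31.8 of 169 Mb of eligible first intron and 15.0 of 446 Mb of later intron. Its share in the ratio was not tested. The peaks of first introns had a mean GC of 49.6% in shGFP and 52.4%, 49.8% and 49.8% in shLuc replicates 1, 2 and 3, and those of later introns 48.6%, 51.1%, 48.6% and 48.5%.

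Density varied more with distance from the start than with intron number. The median region lay 46002 bp from the start of the reference transcript (quartiles 17386 and 117093 bp), at 20137 bp in first and 65122 bp in later introns. The density was 10.1 regions per Mb under 5 kb from the start, 18.8 at 5 to 10 kb, 19.2 at 10 to 20 kb, 18.3 at 20 to 50 kb, 16.8 at 50 to 100 kb and 12.3 beyond 100 kb. Relative to the GC of the windows, the first of these bins held 0.574 of the expected number (0.539 to 0.581 over the libraries), the bin at 10 to 20 kb 1.12 (1.10 to 1.20) and the last 0.929 (0.840 to 0.964). A region was dropped when any part of it lay within 1 kb of a start or touched an exon. Eligible intron was counted by base or window up to that limit. The rule itself thus lowers the first bin, and its share in that deficit was not tested. The order of first and later introns also turned with distance. First introns were at 20.8 and later introns at 16.2 regions per Mb at 5 to 10 kb, and at 11.3 and 12.6 beyond 100 kb. Beyond 100 kb the ratio was below 1 in shGFP and in shLuc replicates 2 and 3, at 0.877, 0.881 and 0.942, and was 1.23 in shLuc replicate 1. The value of 1.23 rested on 44 first-intron regions. A single gene model, Gm20388 (described below), held 18 first-intron regions of shLuc replicate 1, at least 12 of them beyond 100 kb. The ratio of this bin without that model was not computed.

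**Figure D4:**
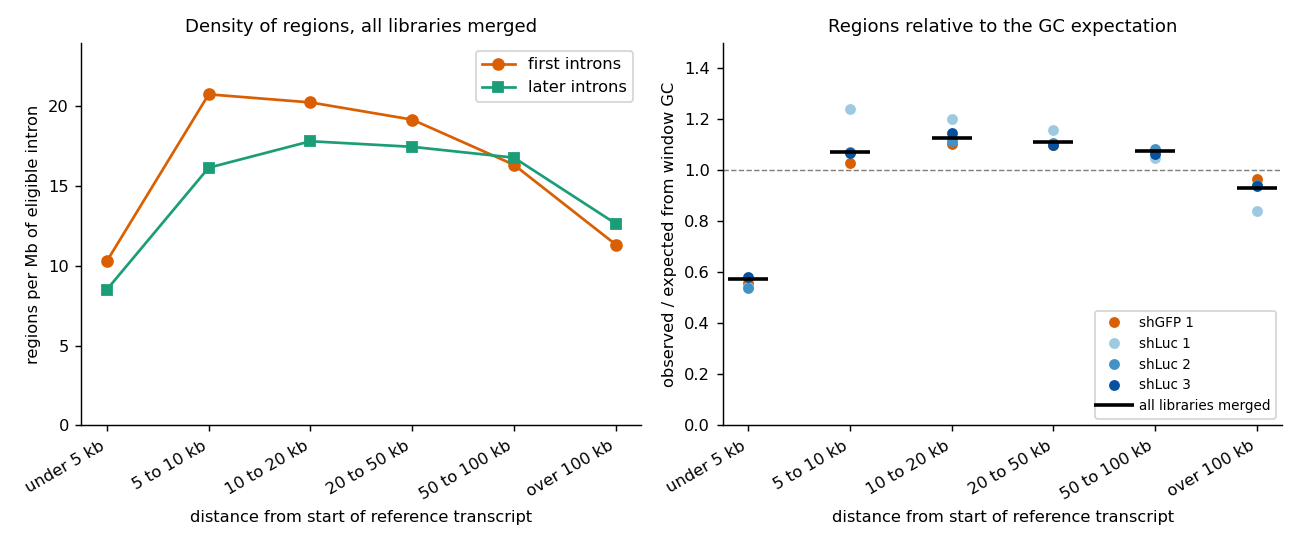
Left, intronic unique regions per Mb of eligible intron (all libraries merged) in first and later introns by distance from the start of the reference transcript; the lines meet at 50 to 100 kb. Right, the observed number over that expected from the GC of the windows, for each library (dots) and all libraries merged (bars), with a dashed line at 1; all libraries lay between 0.539 and 0.581 under 5 kb and above 1 from 5 to 100 kb. The rule that drops regions near starts and exons itself lowers the bin under 5 kb.

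Host genes numbered 5366, of which 4459 were protein-coding and held 87.3% of the regions. A single region stood in 3244 hosts (60.5%), and 384 hosts with 5 or more regions held 2730 (26.2%). Across 17556 autosomal protein-coding genes with eligible intron, the number of regions rose with eligible length (Pearson's r = 0.71, Spearman's rho = 0.60, across genes, which are not independent replicates). At an overall density of 1.54 regions per 100 kb, long genes therefore led the ranking by count.

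The host with the most regions was Gm20388, a gene model on chromosome 8 that spans 4435 kb, with 78 regions in its first intron. Of these, 35 also lay in the body of another protein-coding gene. The library counts were 55 in shGFP and 18, 49 and 34 in shLuc replicates 1, 2 and 3, and 12 regions were in all 4. Fgfr2, which encodes a receptor of fibroblast growth factors, followed with 36 regions, but its annotated body spans 2961 kb and its reference transcript 102 kb, and only 2 of the 36 lay in the introns of that transcript. Both counts describe very long gene models rather than introns of a compact gene. Pde4d, a cyclic AMP phosphodiesterase, and Ptprn2, a phosphatase-like protein of secretory granules, had 20 regions each. Etl4 and Macrod2, the latter an ADP-ribose hydrolase, had 19 each, and Nrxn3, a presynaptic adhesion protein, had 18. Auts2, whose product joins a Polycomb complex in neurons, had 16, but only 1 of them lay in the introns of its reference transcript, which spans 37.7 kb of a body of 1106 kb. Dlgap1, a postsynaptic scaffold, and Slit3, a secreted guidance cue, had 15 each.

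Of these genes Ptprn2 had 15 regions in shGFP and 3, 19 and 11 in shLuc replicates 1, 2 and 3, and 3 in all 4. Macrod2, Nrxn3 and Slit3 had none in shLuc replicate 1 and so none in all 4. Their density was 1.33, 1.45 and 3.17 per 100 kb, the first 2 below the density of all eligible intron.

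Ranked by density among hosts with at least 5 regions, none of those genes led. Gm47465, a long intergenic noncoding gene, had 14.8 regions per 100 kb (5 regions, found as 5 in shGFP and 1, 4 and 4 in shLuc replicates 1, 2 and 3). Runx3, a Runt-domain factor of lymphocytes and neurons, had 12.4, and Igfbp7, a secreted binder of insulin-like growth factor, 11.4. Igfbp7 had 2 regions in shGFP and 1 in each shLuc library. Gm21847 had 10.3, and all 6 of its regions had over 50% repeated words. Adcy3, an adenylyl cyclase, had 10.3, Reep3, of the endoplasmic reticulum, 10.1, and Tead4, the TEAD factor of trophectoderm, 10.0 with 2 regions in shGFP and 0, 4 and 1 in shLuc replicates 1, 2 and 3. Ccdc88c, a regulator of Wnt signalling, had 10.0 with 7 regions, 2610037D02Rik, noncoding, 9.49 with 9 and Nudcd3, a co-chaperone, 9.33 with 5. These densities rest on 5 to 9 regions each.

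Among the gene lists, the pluripotency factors had 16 regions in 4 of 22 genes with eligible intron, 28.4 per Mb against 15.5 in all protein-coding genes. The share of genes with a region was 18.2%, below the 25.4% of all protein-coding genes, and the density rested on 4 genes. The median gene had none, as among all protein-coding genes. Of the 16 regions, 3 were in all 4 libraries, against 816 of all 10418 intronic regions (7.83%) and 27.3% of all autosomal regions. Tcf7l1, the T-cell factor that restrains the pluripotency network, had 6. One of these (chr6:72677270-72678357, intron 3 of 12, 1088 bp, 54.96% GC) was in all 4 libraries. Esrrb, a nuclear receptor of naive ESCs, had 5, none in all 4, with 2 in shGFP and 2, 3 and 2 in shLuc replicates 1, 2 and 3. Jarid2, a subunit of Polycomb repressive complex, had 3. Tfcp2l1, a factor of naive ESCs, had 2, of which chr1:118647731-118648591 (861 bp, intron 2 of 14) had peaks of 744 bp in shGFP and 489, 689 and 844 bp in shLuc replicates 1, 2 and 3. By library the list's density was 14.2 per Mb in shGFP and 12.4, 19.5 and 10.6 in shLuc replicates 1, 2 and 3, against 10.97 and 2.15, 10.6 and 7.13 in all protein-coding genes, higher in 4 of 4. Relative to the GC of its windows the list held 1.38 times the expected number, at 0.969 in shGFP and 4.33, 1.37 and 1.12 in shLuc replicates 1, 2 and 3.

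The synaptic and adhesion genes with long introns were the reverse case. All 20 had a region, 193 in total, yet their density was 9.08 per Mb, below that of all protein-coding genes. It was 6.54 in shGFP and 0.424, 6.87 and 4.19 in shLuc replicates 1, 2 and 3, lower in 4 of 4 libraries. Their windows held 38.6% GC, and relative to it they had 1.05 times the expected number, with 0.460 in shLuc replicate 1 and 1.06 to 1.16 in the others.

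The other lists were small. Signalling of stem cells had 51 regions in 8 of 28 genes, but 36 of them were the Fgfr2 model. Next came Fgfr1 and Gsk3b, a kinase that marks beta-catenin for decay, with 3 each. Among the chromatin regulators of the study, the nuclear corepressor Ncor1 had 3 and the Polycomb ubiquitin ligase Rnf2 had 1. DNA methylation genes had 6 in 3 of 12, in Dnmt3a (3), the de novo methyltransferase, Tet2 (2), a methylcytosine oxidase, and Dnmt1 (1), the maintenance enzyme. Muscle genes had 23 in 9 of 14, led by the calcium channel Ryr2 with 9, the Z-disc protein Ldb3 with 4 and the membrane repair protein Dysf with 3. Housekeeping genes had 2 in 2 of 9, Tbp and Ywhaz, over only 0.0540 Mb. That made 37.0 per Mb, above the pluripotency factors, from 2 regions. The density was 17.6 per Mb in the signalling genes, 19.5 in the DNA methylation genes and 12.6 in the muscle genes. Relative to the GC of their windows these lists held 0.792, 0.841 and 0.756 of the expected number, so all were below it. By library the DNA methylation genes were at 0.984 in shGFP and 0, 1.01 and 1.22 in shLuc replicates 1, 2 and 3. The signalling and muscle genes were below 1 in each library. The DNA methylation and housekeeping lists, with 6 and 2 regions, had none in shLuc replicate 1 and so none in all 4 libraries. Of all 10418 regions only 7.83% were in all 4, so these counts are too small to say more.

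**Figure D5:**
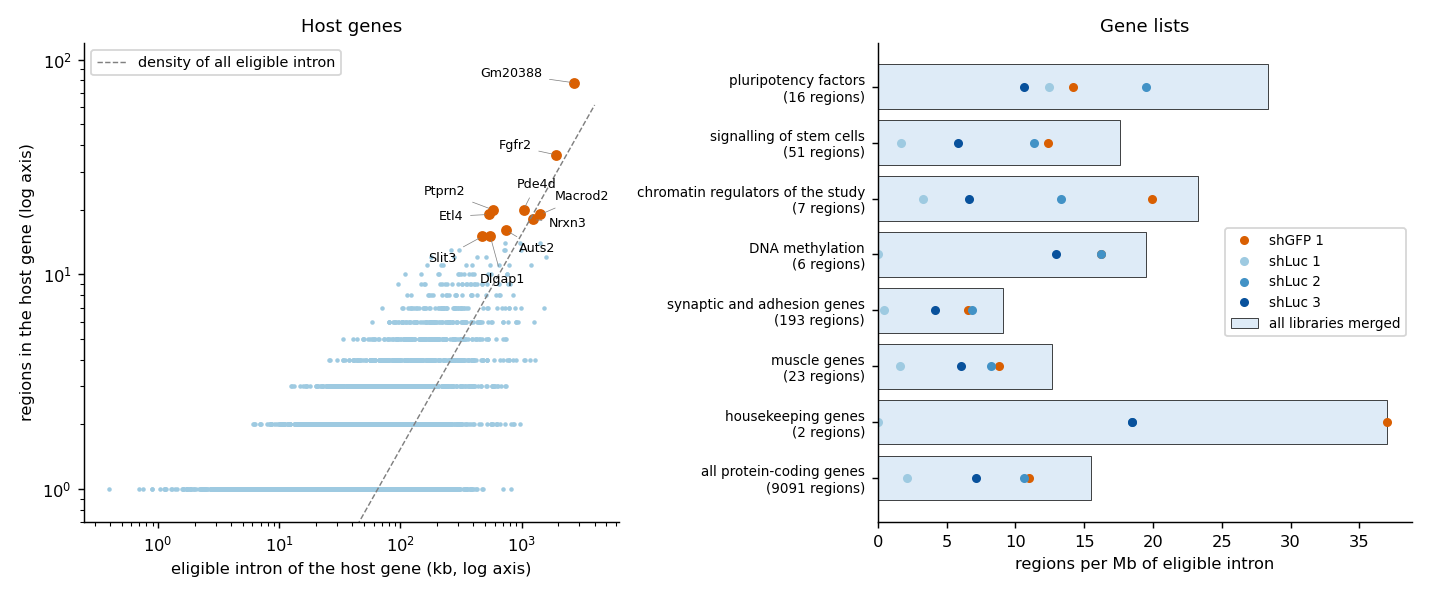
Left, the number of intronic unique regions in each host gene against its eligible intron (kb, both axes log), with the 10 hosts of most regions in orange and a dashed line at the density of all eligible intron, 1.54 per 100 kb. Right, regions per Mb of eligible intron in the gene lists, for all libraries merged (bars) and each library (dots); the pluripotency factors stood at 28.4, the housekeeping genes at 37.0 (2 regions) and the synaptic and adhesion genes at 9.08, against 15.5 in all protein-coding genes.

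Host promoters were compared by whether they were open. Protein-coding genes with a region within 1 kb of a start in all 4 libraries carried 16.1 intronic regions per Mb of eligible intron, those with one in 1 to 3 libraries 14.6 and those with none 14.9. By library, hosts with a promoter region in all 4 were at 11.3 in shGFP and 2.22, 10.9 and 7.49 in shLuc replicates 1, 2 and 3, and hosts with none at 10.9, 2.31, 10.1 and 6.45. The difference was positive in 3 of 4 libraries (4 of 16 sign patterns as extreme in the exact two-sided permutation test, of which 2 is the fewest possible). Length made a larger difference. Hosts with a promoter region in all 4 had 18.7 regions per Mb when they held 50 to 200 kb of eligible intron, 12.7 above 200 kb and 11.5 under 10 kb. The rule that drops regions near starts and exons weighs most on short introns, so it also lowers the last of these values.

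The widest regions found in all 4 libraries were examined 1 by 1. The widest lay in the last of 13 introns of Stam2, which encodes an endosomal sorting adaptor (chr2:52696499-52698943, 2445 bp). Its peaks were 2410 bp in shGFP and 2228, 2445 and 2293 bp in shLuc replicates 1, 2 and 3, and 100% of its words were repeated elsewhere. The next was in the first intron of Lncppara (chr15:85669839-85672076, 2238 bp), with no repeated word and a CpG ratio of 0.899. Those in Gm46323 (2145 bp) and Gm26630 (1870 bp) had 78.4% and 82.9% repeated words. The remaining one was in the first of 9 introns of Nrg2, a neuregulin ligand of ErbB receptors (2018 bp, 63.9% GC), with no repeated word and with peaks of 1793, 823, 1679 and 1495 bp in shGFP and shLuc replicates 1, 2 and 3. Of the 5 widest, 3 were therefore not unique by the word count.

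Neighbouring regions of this kind lay a median of 35257 bp apart, and 18.5% had another within 10 kb. For intergenic unique regions these values were 30525 bp and 22.5%. The nearest promoter region of mostly unique sequence was a median of 38929 bp away from the intronic regions and 48490 bp from the intergenic ones. Over the 19 autosomes the density ran from 13.6 regions per Mb of eligible intron on chromosome 6 to 16.9 on chromosome 11.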

How the data were processed

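ATAC-seq was measured in 4 libraries of E14 mouse ESCs, 1 shGFP and 3 shLuc. The authors deposited 1 peak list per library with 3 columns (chromosome, start, end) and no count, signal or score. Per the submitters' processing notes, bcl2fastq, Bowtie2 and MACS2 were used with mm10, and their versions are not listed there. The study's methods state that tied alignments were placed at random and that only concordant pairs were kept. Peak caller settings and a shift for the transposase are not given in the sources used here. The lists hold no depth. Read totals are in the study's supplement and were not used here. A library with fewer reads can give a shorter list. Wilson intervals cover counting error only.

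From the lists, union regions, classes, GC, CpG ratio, motifs and repeated words of 50 bases were computed with Python 3.11.15, numpy 2.4.6, scipy 1.17.1, pandas and numba on the soft-masked GRCm38 reference and GENCODE mouse release 21 (141767 transcripts). A host was the longest protein-coding gene at the midpoint, otherwise the longest gene. Eligible intron was unmasked, off exons and over 1 kb from any start. Steps were tested on simulated data. Comparisons used values per library and the exact sign-flip permutation test. Libraries share many regions, so in each comparison, motifs included, their values are not independent observations. Alternatives varied the masking limit, start distance, merging, list length, libraries and denominators. Named were the 10 hosts with most regions, the 10 densest with at least 5, list genes with most regions, and regions extreme in width or GC. Sequences are given for some of the motifs described. The regions and lists were chosen with earlier results of these data known. The count over the list of chromatin regulators is not reported here.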

Additional observations from a re-analysis of the deposited data

How the results depend on the processing

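The regions numbered 10418, and 3384 with equal list lengths and 6087 when found in at least 2 libraries. Equal list lengths also gave a median width of 783.5 bp, member shares of 7.88% in shGFP and 8.31% in shLuc, a difference of -0.43 percentage points in place of 4.24, and a KLF fold of 2.30. In at least 2 libraries the median width was 627 bp. The KLF fold was 2.10 under 25% masked and 2.12 with no start within 5 kb. With windows weighted by GC the folds were 8.62 for the CTCF core, 3.16 for the OCT4-SOX2 composite and 1.24 for KLF. The ratio of first to later introns, 1.10, was 1.19 with no start within 5 kb. By distance bin it was 1.21, 1.28, 1.14, 0.97 and 0.90 (under 5, 5 to 10, 10 to 20, 50 to 100 and over 100 kb). Chosen after seeing the data, counting per window gave 1.05 and the GC expectation 0.95. Leaving out each library in turn, the share in all libraries ran from 9.75% to 32.5% (the highest without shLuc replicate 1, against 7.83%), the number of regions from 8634 to 10164, the intron ratio from 1.08 to 1.11, the CTCF core fold from 20.1 to 20.9 and the difference between hairpins from 1.40 to 6.25 percentage points. The cause of each shift was not tested. Of 171 values under alternatives, 149 lay within 1 SD of the shLuc libraries (or, for the number of regions, within 1.5 times), 18 moved further and 4 reversed. That SD was wide for some results. It was 24.3 percentage points for the share in all libraries, itself 7.83%, and 5.04 for the shares by hairpin and their difference. For these results, lying within 1 SD does not show that a value is stable. No paired analysis of shGFP with shLuc was possible because the labels do not link the shGFP library to any shLuc library.

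Lists were not scaled to depth, which limits these values, since a region missing from a list was not called there, which does not show that it was closed. With 4 libraries no exact sign-flip permutation test can pass 0.05. The ranking of hosts by count and the share of first introns rest on annotated gene models, and without the Gm20388 model, an alternative also chosen after seeing the data, the intron ratio was 1.08.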
